A study of Mus musculus with 18 samples.

Results

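The Ighe unit is the stretch of the mouse immunoglobulin heavy chain locus (Igh) that holds Ighe, the constant gene of IgE, and the interval upstream of it as far as Ighg2c. It was defined by position alone, as all fragment ends at chr12:113269263-113287388 of mm10, a stretch of 18126 bp. A boundary at 113273248, the start of the gene, divided it into a gene body of 3986 bp and an upstream part of 14140 bp. At least 1 of the 18 libraries listed 101 ends there, out of 56916 ends listed on chromosome 12. The gene body held 20 of these ends and the upstream part 81.

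Class switch recombination exchanges the constant gene that a B cell expresses. The recombination joins repetitive switch regions upstream of the constant genes, and a cytokine-responsive germline promoter must first transcribe the switch region that is to be used. The epsilon switch region and its germline promoter lie upstream of Ighe, and IL4 is the classical signal that turns on that promoter and the one of Ighg1. LPS without IL4 favours Ighg3 and Ighg2b. Eμ, the intronic enhancer of Igh, and the 3' regulatory region (3'RR), an enhancer cluster downstream of Igha, are the main control elements of the locus, and Med1 is a subunit of Mediator, the complex that connects enhancers with RNA polymerase II.

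Contacts of Eμ were measured by 4C-seq, which digests fixed chromatin with DpnII, ligates fragments that lie together, trims the products with Csp6I and sequences what has joined the bait. The cells were CD43-negative mature B cells of the mouse spleen, wild type (WT) or Med1 mutant. The titles of the mutant libraries contain KO, and the labels do not describe the mutant allele further. The cells were fixed in 2% formaldehyde either resting, or after 2 days with LPS and IL4, or after 2 days with LPS. Each of the 6 groups had 3 libraries. The 12 resting and LPS+IL4 libraries give reads per 24-bp fragment end, and the 6 LPS libraries of a later deposit list only which ends were covered. In a population of cells, a contact in more of the cells and a firmer contact in each cell cannot be told apart.

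In the first deposit, 6 libraries carry a genotype label of WT and titles that contain WTKO. They were taken as WT by the label, and 4C-seq cannot check the loss of Med1. For WT LPS+IL4 replicate 2 the growth note gives anti-CD40 and IL4 in place of LPS and IL4. The edgeR results of the whole unit and the activation ratio over its neighbours are therefore also given without it. Gene body, upstream part, smaller pieces, windows and single ends are given with it. The labels do not say that the 3 libraries of a group came from separate mice, so p-values measure only the spread between these libraries, which may be technical. Library totals ran from 2470497 to 21074434 reads, and the Ighe unit received 14764 to 194692 of them. Med1 mutant LPS+IL4 replicate 2 was the deepest library by both measures. The libraries were also put into 2 sets that no label names. The second set is mutant replicates 2 and 3 and WT replicate 3, and the first is mutant replicate 1 and WT replicates 1 and 2. Ends that part the sets were picked by at least 50 reads in at least 5 second-set libraries and under 50 in every first-set library. At the 4 such ends of the unit, the second set had 6.33% to 10.3% of the unit's reads, and the first set had 0.00579% to 0.0195%. This contrast follows from how the ends were picked and does not show the split.

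Activation of WT cells raised the contact of Eμ with the Ighe unit. The contact is given as the share of all chromosome 12 reads more than 5 kb from the bait. In the resting WT libraries the unit held 1.28%, 1.01% and 1.21% of these reads, and after LPS+IL4 it held 1.62%, 1.89% and 1.96%. All 3 activated libraries lay above all 3 resting libraries. The mean went from 1.17% ± 0.136 (SD, n = 3) to 1.82% ± 0.179 (SD, n = 3), a log2 change of 0.64 ± 0.19 (SE; 95% interval 0.24 to 1.04; edgeR quasi-likelihood test, adjusted p = 0.00471). The p-value was adjusted over 16 units that tile the locus, of which 9 (56.2%) passed the threshold of 0.05 in this comparison, so a call here is common along the locus. The call was lost with TMM scaling (log2 0.54, adjusted p = 0.0616) and without WT LPS+IL4 replicate 3 (log2 0.59, adjusted p = 0.0811). TMM scaling moved the median of the 16 units from 0.09 to -0.01. A log2 of 0.54 passed without the highest end of the unit (edgeR, adjusted p = 0.00203), and 0.52 passed with DESeq2 (adjusted p = 0.000207). Whether a value of this size passed therefore turned on the estimated spread as well. Without WT LPS+IL4 replicate 2, the library with the anti-CD40 note, the log2 change was 0.62 (adjusted p = 0.0151).

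In Med1 mutant cells the unit moved the same way by its estimate, but the change did not pass the test. The resting mutant libraries held 1.45%, 1.44% and 1.63%, and the activated ones 1.94%, 1.91% and 1.87%. These groups did not overlap either. Separation of resting and activated libraries was common along the locus in both genotypes, upwards for example at Ighg1, Ighg2b and the 3'RR, and downwards at Ighg3 and Ighd. The mean went from 1.51% ± 0.108 (SD, n = 3) to 1.91% ± 0.0326 (SD, n = 3), a log2 change of 0.34 ± 0.19 (SE; 95% interval -0.06 to 0.73; edgeR, adjusted p = 0.151), in a comparison where 56.2% of the units passed. The estimate passed under 6 of 18 alternatives, with adjusted p from 0.00813 to 0.0464, among them a cap on the reads of single ends (log2 0.42, adjusted p = 0.0144). With a bait neighbourhood of 2 kb the same log2 value (0.34) had an SE of 0.11 and passed (adjusted p = 0.0159), so whether it passed turned on the estimated spread, which edgeR shares over only 16 units.

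The activation effect was not shown to differ between the genotypes. The difference of the log2 changes, mutant minus WT, was -0.31 ± 0.27 (SE; 95% interval -0.87 to 0.26; edgeR, adjusted p = 0.552). No unit of the 16 passed in this comparison (0%); DESeq2 also called 0, and the unadjusted p was under 0.05 for 1 unit. This interval holds a smaller gain in the mutant than in WT, an equal gain and a larger one. The mutant change by itself had a 95% interval of -0.06 to 0.73. Without WT LPS+IL4 replicate 2 the difference was -0.28 (edgeR, adjusted p = 0.524).

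The genotypes were apart at rest and not after activation by their values, and neither difference passed. At rest all 3 mutant libraries, from 1.44% to 1.63%, lay above all 3 WT libraries, from 1.01% to 1.28%. Such a separation was not particular to Ighe. The resting genotypes also did not overlap at Ighg3, Ighd and the distal VH segments, where the mutant was lower. They also parted at the J and D segments, where the mutant was higher. The log2 difference was 0.37 ± 0.19 (SE; 95% interval -0.03 to 0.77; edgeR, adjusted p = 0.213); at rest edgeR called no unit of the 16 (0%) and DESeq2 called 1, and the unadjusted p was under 0.05 for 4. Within the first library set (1 mutant and 2 WT libraries) and the second (2 mutant and 1 WT) the resting differences were 0.34 and 0.34. With 1 library on 1 side of each, and sets that no label names, these 2 values do not count as a replication. With the library set as a block the value was 0.35 (edgeR, adjusted p = 0.111). After LPS+IL4 the genotypes overlapped, with a log2 difference of 0.06 ± 0.19 (SE; 95% interval -0.33 to 0.46; edgeR, adjusted p = 0.872), in a comparison where 3 of 16 units (18.8%) passed. Within the sets, again with 1 library against 2, the LPS+IL4 differences were 0.14 and -0.05. Without WT LPS+IL4 replicate 2 the pooled value was 0.09 (edgeR, adjusted p = 0.814).

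**Figure D1:**
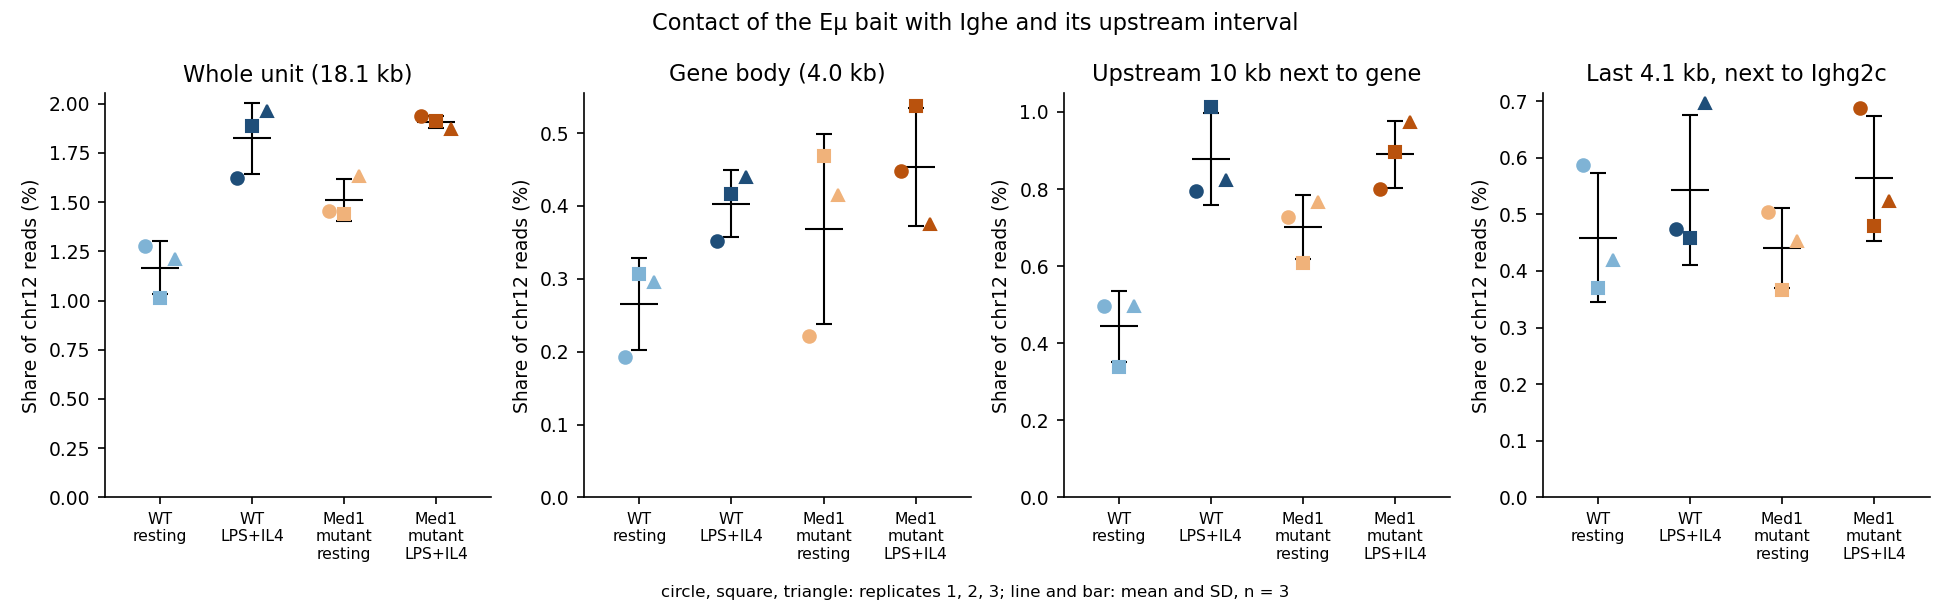
Share of chromosome 12 reads (%, y axis) in the whole Ighe unit, the gene body, the 10 kb next to the gene and the last 4.14 kb next to Ighg2c, for the 4 groups with read counts (x axis). Points are libraries, with the mean and SD of 3 as line and bar. WT resting libraries lie lowest in the whole unit (1.01% to 1.28%) and in the 10 kb next to the gene (0.337% to 0.497%), and the groups overlap in the last piece.

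The unit was next cut into the gene body, the 10 kb upstream of it and the last 4.14 kb before Ighg2c. Of these 3 pieces, the 10-kb piece was the one in which resting WT libraries lay below all others. It held 0.497%, 0.337% and 0.497% in resting WT libraries and 0.795%, 1.01% and 0.824% in activated WT libraries. In the mutant it held 0.727%, 0.608% and 0.767% at rest and 0.799%, 0.896% and 0.973% after activation. The log2 ratios of the mean shares were 0.98 for WT activation, 0.34 for mutant activation, 0.66 for mutant over WT at rest and 0.02 for mutant over WT after activation. The last 4.14 kb, by contrast, overlapped in all 4 comparisons, with ratios of 0.24, 0.36, -0.06 and 0.05 in the same order. These pieces are given as values, without a test between them. The 1.01% in the 10-kb piece is from WT LPS+IL4 replicate 2, the library with the anti-CD40 note.

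The choice of the upstream limit therefore moved the genotype result. With the upstream parts of the constant genes limited to 10 kb, the resting difference was 0.59 (adjusted p = 0.00326), which was 1 of the 2 settings among 19 that gave a call; the other was a bait neighbourhood of 2 kb, where the log2 value was again 0.37 and its SE was 0.11 (adjusted p = 0.0374). Under the same limit WT activation was 0.85 (adjusted p = 7.07e-06) and the difference between the activation effects was -0.52 (adjusted p = 0.177). The whole interval up to Ighg2c, as tested above, gave 0.37 for the resting difference. Most of the resting gap in the 10-kb piece (means 0.444% in WT and 0.701% in the mutant) lay in a single 2-kb window. That window, chr12:113281263-113283262, held 0.146% and 0.377% and was singled out after its values were seen. The window at the gene start held 0.167% and 0.179%.

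The gene body and the full upstream part were also tested as separate features in a table of 23 rows. The upstream part rose on activation of WT cells, from 0.902% ± 0.188 (SD, n = 3) to 1.42% ± 0.133 (SD, n = 3), with a log2 change of 0.65 ± 0.18 (SE; edgeR, adjusted p = 0.00561); 11 of the 23 features (47.8%) passed in that comparison. The gene body held 0.192%, 0.307% and 0.296% in resting WT libraries and 0.352%, 0.417% and 0.440% in activated ones, with no overlap. Its log2 value of 0.60 ± 0.27 (SE) did not pass (edgeR, adjusted p = 0.0777), but it did with capped reads (0.68, adjusted p = 0.033) and without WT resting replicate 2 (0.72, adjusted p = 0.0492). In the mutant neither passed, with log2 values of 0.30 for the body and 0.35 for the upstream part (edgeR, adjusted p = 0.355 and 0.133), where 34.8% of the features passed. With capped reads the mutant upstream part passed (0.42, adjusted p = 0.0486), and the value of the mutant body was 0.038 without resting replicate 1, 0.51 without resting replicate 2 and 0.16 when replicate 2 of the activated mutant was left out. The genotype differences were 0.47 for the body and 0.34 for the upstream part at rest, and 0.17 and 0.03 after LPS+IL4. Single libraries moved the resting values: the body was at 0.74 (adjusted p = 0.0466, a call) without mutant resting replicate 1, at 0.26 without mutant resting replicate 2 and at 0.29 without WT resting replicate 1, and the upstream part was at 0.19 without WT resting replicate 2. The difference of the activation effects was -0.30 for the body and -0.31 for the upstream part. None of the 23 features passed in these last 3 comparisons (0% each), in which 4, 4 and 1 had an unadjusted p under 0.05.

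No change in the division of reads between body and upstream part was detected. The body held 15.1% to 30.3% of the unit's reads in resting WT libraries and 21.7% to 22.5% in activated ones. In the mutant it held 15.2% to 32.5% at rest and 20.02% to 28.1% after activation. Within a library this split does not depend on how the library was scaled. The log2 ratio of body to upstream reads changed by -0.02 on activation (exact two-sided permutation test over 400 arrangements, p = 0.955) and by 0.10 between genotypes (exact permutation p = 0.665); adjusted over the 4 ratio tests the p-values were 0.955 and 0.887. Per kb, the body and the upstream part were at like levels, 0.0665% and 0.0638% in resting WT libraries and 0.1011% and 0.1005% in activated ones.

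**Figure D2:**
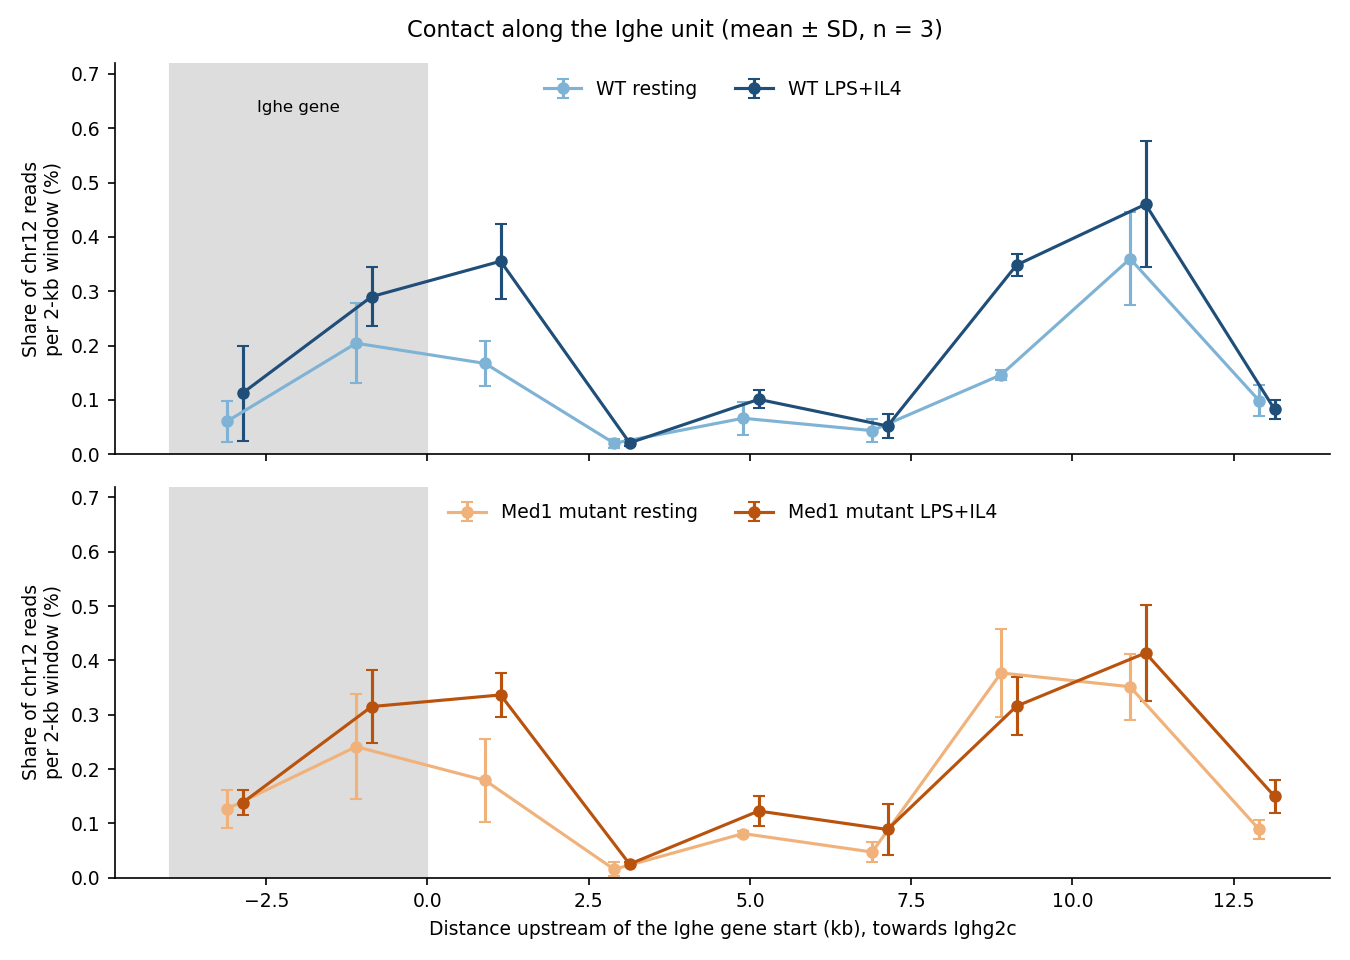
Share of chromosome 12 reads per 2-kb window (%, y axis) against the distance of the window's middle upstream of the Ighe gene start (kb, x axis; the gene is shaded), for WT (top) and Med1 mutant (bottom). Points are means of 3 libraries with SD. Reads peak around the gene start and at 9 to 11 kb; between these peaks (2 to 8 kb) the group means are 0.0156% to 0.123%. At 9 kb resting WT libraries (mean 0.146%) stand below the other groups (0.316% to 0.377%).

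Along the unit, reads were concentrated around the gene start and in the windows centred 9 and 11 kb upstream, with lower levels between them and in the outermost windows, whose group means were 0.0608% to 0.138% and 0.0828% to 0.150%. In 9 windows of 2 kb the group means ran from 0.0156% to 0.460%, and the highest window was chr12:113283263-113285262 in 3 of the 4 groups. It held 0.360% ± 0.0852 in resting WT and 0.460% ± 0.116 in activated WT libraries, and 0.352% ± 0.0611 and 0.414% ± 0.0878 in the mutant (SD, n = 3 each). The window with the lowest means, chr12:113275263-113277262, held 0.0156% to 0.0252%. In resting mutant libraries the highest window was the neighbouring chr12:113281263-113283262, which is singled out here after its values were seen. That window had 0.138% to 0.156% in resting WT libraries, 0.325% to 0.471% in resting mutant libraries, 0.327% to 0.367% in activated WT libraries and 0.262% to 0.367% in activated mutant libraries. Resting WT libraries lay below all others there, and the other 3 groups overlapped. The window at the gene start, chr12:113273263-113275262, behaved otherwise: it was close between the genotypes at rest (means 0.167% in WT and 0.179% in the mutant) and higher after activation in both (0.355% and 0.337%), with no overlap between resting and activated libraries of either genotype.

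Few ends carried most of the reads. The highest end held 10.02% of the mean share of the unit, the highest 5 held 36.5%, and the highest 20 held 84.0%. The ends fall into pairs that flank a DpnII site, with starts 28 bp apart: 93 of the 101 ends formed 47 such pairs, and in the median pair the higher end took 90.7% of the pair's reads. Ends flanking a site therefore did not act as repeats of each other. Coverage also differed between libraries, since 33 ends had reads in all 12 read-count libraries and 28 were covered in all 18.

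The highest end lay 529 bp upstream of the gene start, at chr12:113273777-113273800. It had 1031, 463 and 941 CPM (reads scaled to 1000000 chromosome 12 reads) in resting WT libraries and 2209, 3280.4 and 1846 after activation. In the mutant it had 1534, 1086 and 425 at rest and 2691, 1609 and 2141 after activation. Activated libraries lay above resting ones in both genotypes, and the 3280.4 CPM was from WT LPS+IL4 replicate 2, the library with the anti-CD40 note. The log2 changes of 1.59 ± 0.47 in WT and 1.08 ± 0.47 in the mutant (SE) did not pass over 2078 ends (edgeR, adjusted p = 0.24 and 0.501). Its genotype differences were 0.32 ± 0.46 at rest and -0.19 ± 0.46 after activation.

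The next ends in rank lay farther upstream. The ends 10430 and 10145 bp upstream had group means of 1046 to 1606 and 988 to 1236 CPM, with overlapping groups. The ends 8464 and 8431 bp upstream, at chr12:113281712-113281735 and chr12:113281679-113281702, belong to the window that was low in resting WT libraries. The first had 560.1, 247 and 291 CPM in resting WT, 1727, 721 and 1767 in resting mutant, 798, 829 and 1261 in activated WT and 751, 1259 and 1573 in activated mutant libraries. Resting WT was again below the rest, with a log2 difference between the genotypes at rest of 1.94 ± 0.47 (SE; edgeR, adjusted p = 0.641). The end 8431 bp upstream varied widely between replicates, from 53.5 to 990.0 in resting WT libraries and from 526 to 1964 in resting mutant libraries.

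No single end of the unit passed the test, while most had a positive log2 value on activation. Of the 101 ends, 82 had a mean of at least 10 reads over the 12 libraries and were tested. None passed in any of the 5 comparisons with edgeR, against 25 of 2078 ends within 500 kb of the bait (1.2%) in WT activation, 26 (1.25%) in mutant activation and 0 (0%) in each genotype comparison and in the difference of the activation effects. Unadjusted p-values under 0.05 numbered 9 for WT activation, 10 for mutant activation, 12 for genotype at rest, 0 for genotype after LPS+IL4 and 7 for the difference of the activation effects. These are 10.98%, 12.2%, 14.6%, 0% and 8.54% of the 82 ends, against 9.19%, 9.82%, 6.93%, 2.50% and 6.21% of all 2078. DESeq2 called 10, 6, 6, 0 and 3 ends of the unit, or 12.2%, 7.32%, 7.32%, 0% and 3.66%, against 7.89%, 7.56%, 4.96%, 1.3% and 3.71% of all ends. In WT activation 61 of the 82 ends (74.4%) had a positive log2 change, with a median of 0.53, against 48.0% and a median of -0.01 over all 2078 ends. In mutant activation 60 (73.2%) were positive with a median of 0.41, against 49.8%. At rest 47 ends (57.3%) were higher in the mutant, with a median of 0.16, against 45.4% of all ends. After LPS+IL4 52 ends (63.4%) were higher in the mutant, with a median of 0.14, against 47.3%. The difference of the activation effects was positive at 39 ends (47.6%), with a median of -0.28, against 51.3%. Ends of a pair and ends of a fragment share their ligation products, so these counts describe the unit and are not independent observations.

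The spread of single ends was wide. Between the 3 libraries of a group the coefficient of variation of an end had a median of 62.9% in activated WT cells and 84.9% to 89.5% in the other groups, while that of the whole unit was 1.71% to 11.6%. Spearman's rho between 2 libraries over the 82 ends had a median of 0.64 for the 12 pairs within a group and 0.63 for the 54 pairs across groups. It was 0.69 for pairs within a library set and 0.55 for pairs across sets, but 4 of these ends are those that part the sets. Without those 4 ends the medians were 0.67 within and 0.65 across sets, and 0.71 within and 0.65 across groups. These correlations are across ends, which are not independent, and are given as description.

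**Figure D3:**
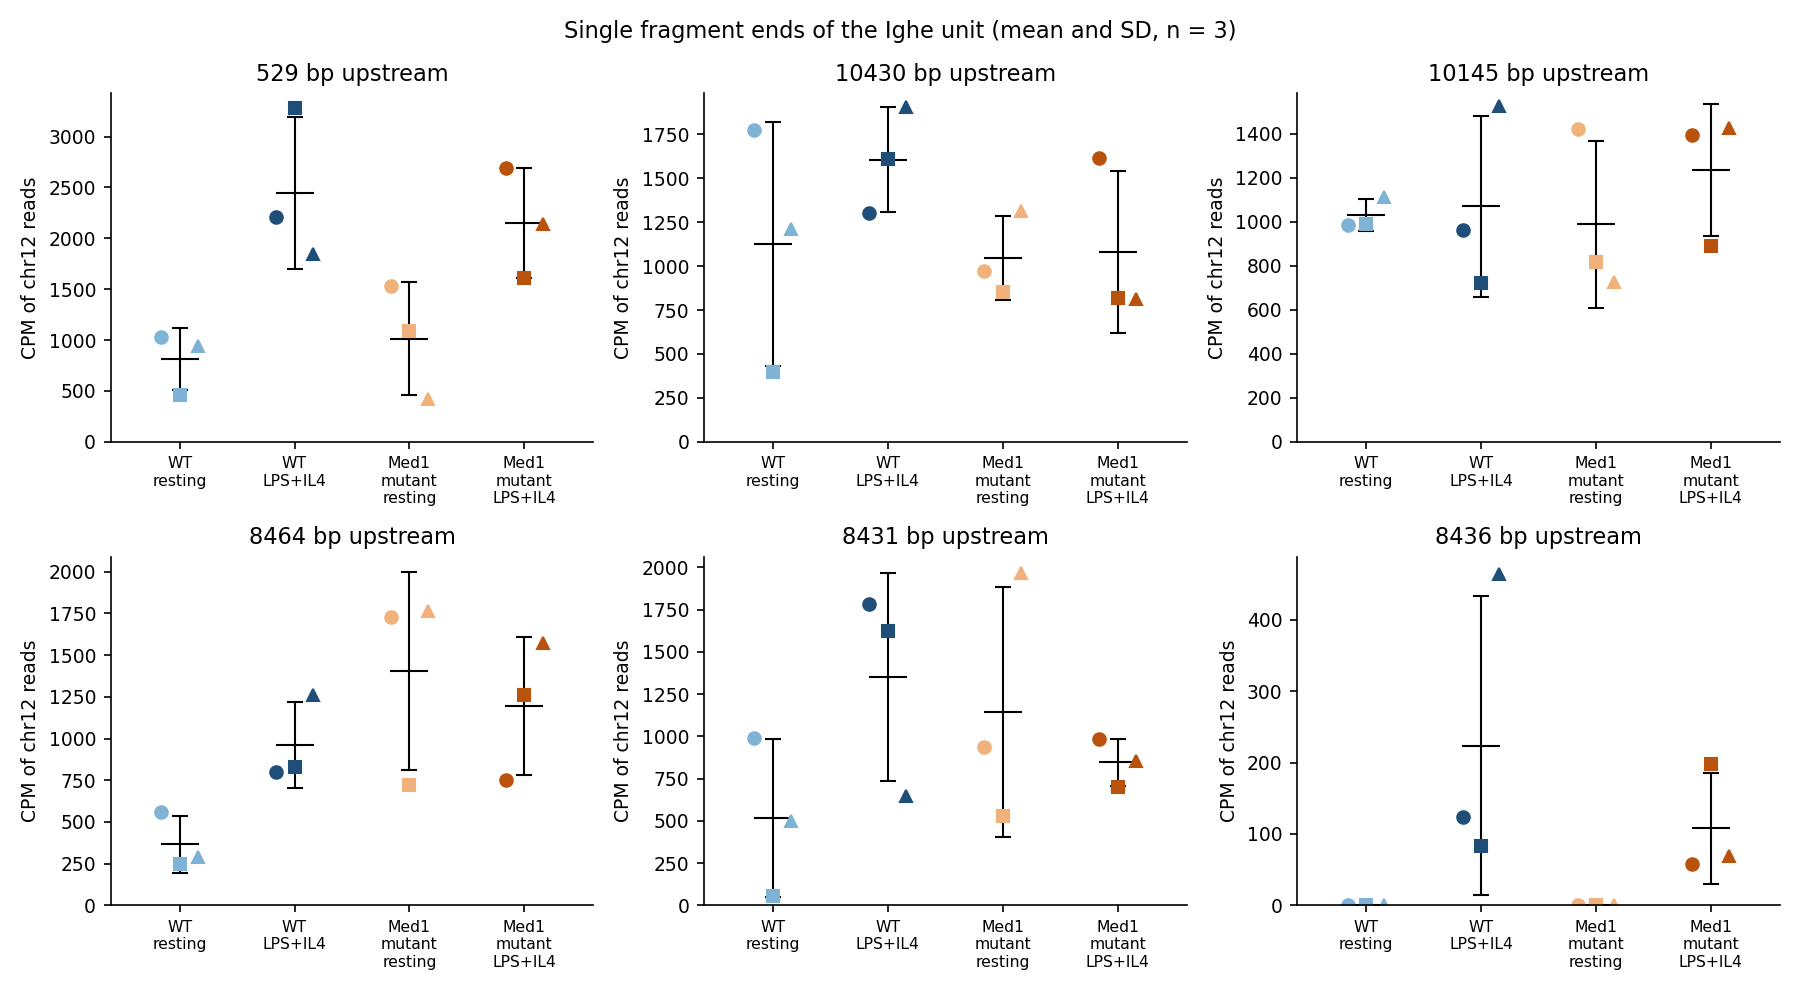
CPM, reads scaled to 1000000 chromosome 12 reads (y axis), at the 5 highest ends of the unit and at the end 8436 bp upstream, named by their distance from the gene start, in the 4 groups (x axis). Points are libraries, with mean and SD of 3. The end at 529 bp is higher in activated libraries of both genotypes, the end at 8464 bp is lowest in resting WT libraries (247 to 560.1), and the end at 8436 bp is at 0 in all 6 resting libraries.

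An end 8436 bp upstream of the gene, at chr12:113281684-113281707, is described because of its values, which were seen first. It had 0 reads in all 6 resting libraries. After LPS+IL4 it had 346, 159 and 894 reads in WT libraries and 91, 2011 and 92 in mutant libraries, or 83.1 to 464 and 57.4 to 198 CPM. Against a floor of 3 reads in each resting library, which covers counting error only, the activated mean was at least 139-fold higher in WT and at least 40.1-fold higher in the mutant. Leaving out 1 library lowered these bounds, to at least 64.0-fold without WT LPS+IL4 replicate 3 and at least 23.5-fold without mutant LPS+IL4 replicate 2. It came closest to a call of all ends in the unit (edgeR, adjusted p = 0.0526 in WT and 0.081 in the mutant). Of the 6 LPS libraries 3 listed it. Over the 2078 tested ends of the locus, 2 had no reads in any resting library and reads in all 6 activated libraries, none had the reverse, and both of the 2 lay in the Ighe unit. The other, 6149 bp upstream, had 0.753 to 190.1 CPM after activation, with the 190.1 in WT LPS+IL4 replicate 2. Of the 6 LPS libraries 4 listed the end at 6149 bp. Both ends reached the required mean of 10 reads only through activated libraries. The end at 8436 bp was also picked by its values. The fold bounds, p-values and counts of ends given here are therefore description only. Activated libraries had more chromosome 12 reads on average in both genotypes. Single libraries did not all follow this: WT resting replicate 1 had 2521119, and WT LPS+IL4 replicates 2 and 3 had 1914405 and 1924668. A part of library depth in this pattern was not tested.

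The end at 8436 bp belongs to a DpnII site that lies 5 bp from another one, so its 24-bp interval spans the other site. The outward-facing ends of the 2 neighbouring sites are those at 8431 and 8464 bp, which are among the 5 highest of the unit and had reads in all 12 libraries. The end at 8459 bp, which spans the neighbouring site from the other side, had reads in 3 of 6 resting libraries and all 6 activated libraries, with 0 to 158 CPM in resting mutant libraries, 0 to 0.793 in resting WT libraries, 80.4 to 281 in activated WT libraries and 0.63 to 207 in activated mutant libraries, so that resting and activated libraries overlapped in the mutant. Of the 2078 ends, 62 span another site in this way. Summed over these 62, the level was 5839 CPM in resting libraries (4245 to 7621) and 4708 in activated libraries (3872 to 5192). The sum does not speak for single ends, and a part of the neighbouring site in the values at 8436 bp was not tested.

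Of the constant genes between Ighg2b and the 3'RR, which are Ighg2c, Ighe and Igha, Ighe was the one whose unit passed the test in WT activation. Per kb, the Ighe unit had 0.0644% ± 0.00750 in resting WT and 0.101% ± 0.00988 in activated WT libraries, and 0.0833% ± 0.00595 and 0.105% ± 0.00180 in the mutant (SD, n = 3 each). Ighg2c, the IgG2c constant gene on the bait side, had 0.0835% ± 0.0303 and 0.0984% ± 0.0113 in WT (log2 0.24, adjusted p = 0.441). Igha, the IgA constant gene beyond Ighe, had 0.0723% ± 0.0122 and 0.0685% ± 0.00511 in WT (log2 -0.08, adjusted p = 0.834). Ighg1, the other target of IL4, rose from 0.0547% ± 0.00487 to 0.103% ± 0.00345 in WT (log2 0.92 ± 0.10 SE, adjusted p = 2.51e-09) and also passed in the mutant (log2 0.65 ± 0.10 SE, adjusted p = 1.22e-06). A gain that passes at Ighe and not at Ighg2c or Igha does not show that the genes differ.

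**Figure D4:**
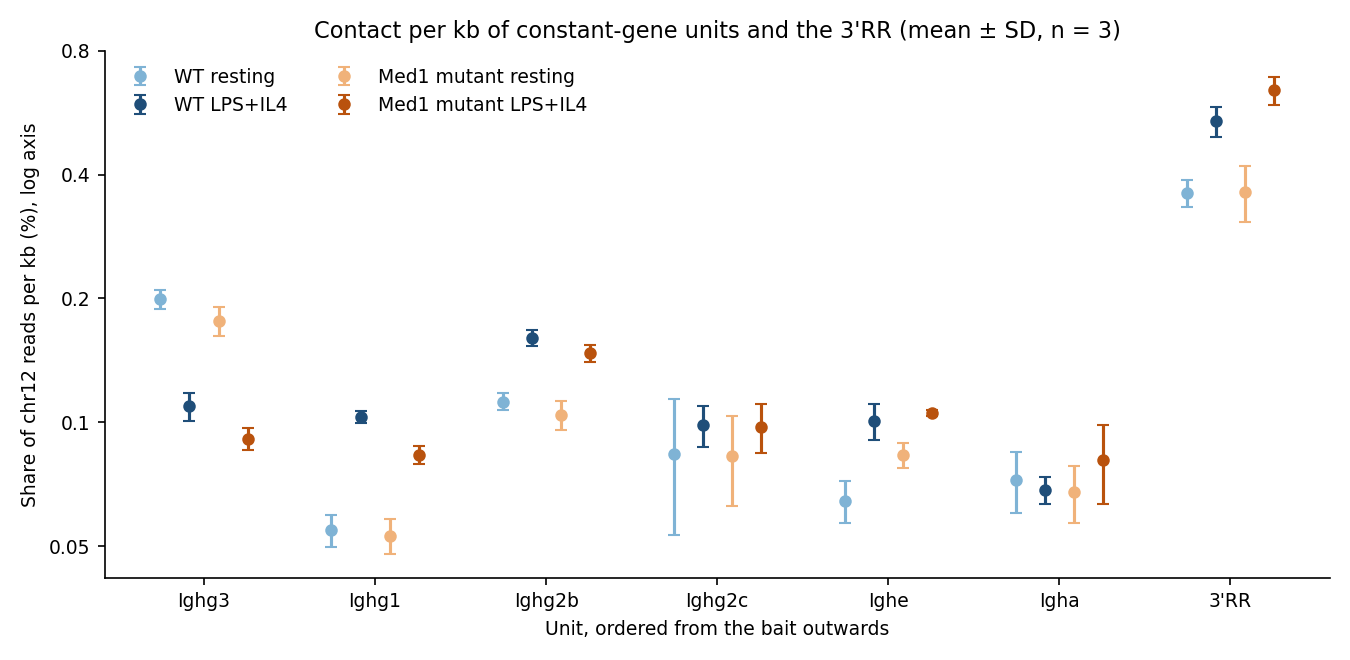
Share of chromosome 12 reads per kb (%, y axis, log scale) for 6 constant-gene units and the 3'RR, ordered outwards from the bait (x axis), in the 4 groups. Points are means of 3 libraries with SD. Ighe in resting WT libraries (0.0644%) lies between Ighg1 (0.0547%) and Igha (0.0723%), and after activation (0.101%) between Ighg2c (0.0984%) and Ighg1 (0.103%).

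That difference was tested as a ratio within each library. Reads of the Ighe unit over those of Ighg2c and Igha together were 0.637, 0.348 and 0.563 in resting WT libraries and 0.603, 0.786 and 0.758 in activated ones. Resting mutant libraries had 0.590, 0.612 and 0.801, and activated mutant libraries 0.711, 0.658 and 0.754. Resting and activated libraries overlapped in both genotypes. The mean log2 difference on activation, 0.51 in WT and 0.09 in the mutant, was 0.30 (exact two-sided permutation test, p = 0.085, adjusted over the 4 ratio tests p = 0.34). The mean genotype difference was 0.20 (exact permutation p = 0.315, adjusted p = 0.63), made up of 0.40 at rest and -0.01 after LPS+IL4. With the reads of single ends capped, or without mutant resting replicate 3, the activation value was 0.36 or 0.37 with an unadjusted exact p of 0.02 in each. Without WT resting replicate 2 the activation value was 0.17 (unadjusted exact p = 0.155) and the genotype value 0.068, and without mutant resting replicate 3 the genotype value was 0.13. Over all alternatives the unadjusted exact p of the activation value ran from 0.02 to 0.21. The highest p was that without WT LPS+IL4 replicate 2, the library with the anti-CD40 note, where the activation value was 0.27.

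Over the 12 libraries, the log2 share of Ighe was most like those of the 3'RR (Pearson r = 0.81), Ighg1 (0.78) and Ighg2b (0.74). It was least like Ighg3 (-0.88) and Ighd (-0.86), and had little relation with its direct neighbours Igha (0.19) and Ighg2c (0.14). These 12 points share 4 groups and a common total of chromosome 12 reads, and the correlations are given as description. The 3 most similar units all passed in WT activation, the 3'RR with a log2 change of 0.58 ± 0.12 (SE, adjusted p = 0.000105) and Ighg2b with 0.52 ± 0.08 (SE, adjusted p = 1.75e-06).

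The covered ends, which can be counted in all 18 libraries, gave a different picture. Of the 101 ends, resting WT libraries covered 68, 61 and 75, WT LPS libraries 75, 72 and 76, and WT LPS+IL4 libraries 77, 71 and 86. Mutant libraries covered 60, 68 and 70 at rest, 72, 77 and 61 with LPS, and 64, 90 and 87 with LPS+IL4. Genotypes overlapped in every condition, and conditions overlapped in each genotype. Taken as a share of all covered ends of chromosome 12, the unit went down with LPS+IL4, from 0.808% ± 0.0302 to 0.703% ± 0.0728 in WT and from 0.868% ± 0.0720 to 0.704% ± 0.112 in the mutant (SD, n = 3 each), while the covered ends of chromosome 12 increased from a mean of 8401 to 11109 in WT and from 7614 to 11760 in the mutant. With each covered end counted once in place of its reads, the WT activation value was accordingly -0.20 (edgeR, adjusted p = 0.278) and the mutant value -0.33 (adjusted p = 0.0772). Ighg1, whose reads rose on activation, also had a lower mean share of covered ends, 1.05% against 1.20% in WT. As a percent of the unit's own ends, the covered ends of Ighe had means of 67.3% at rest and 77.2% after LPS+IL4 in WT, and of 65.3% and 79.5% in the mutant.

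**Figure D5:**
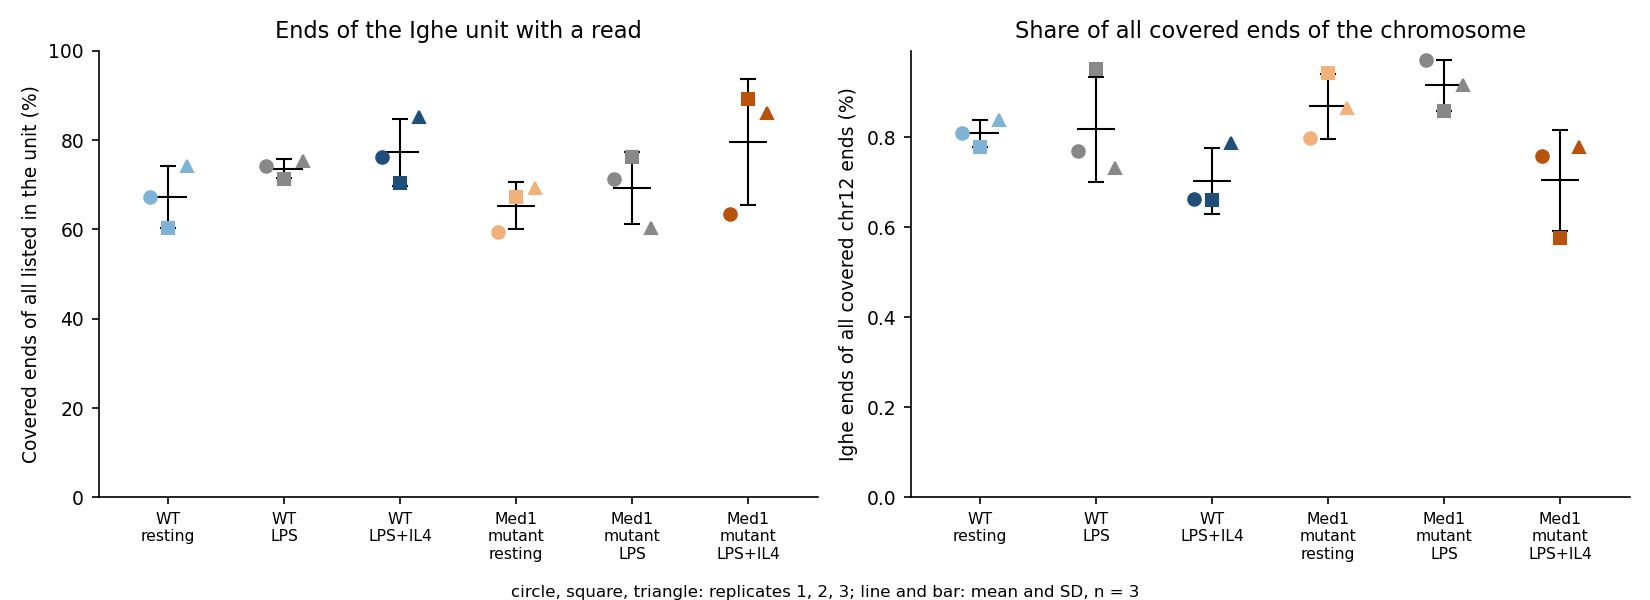
Covered ends of the Ighe unit in all 6 groups (x axis), as percent of the 101 listed ends (left) and as percent of all covered ends of chromosome 12 (right). Points are libraries, with mean and SD of 3; LPS libraries are grey. Groups overlap on the left, and the LPS+IL4 means (0.703% and 0.704%) are the lowest on the right.

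With LPS no difference between the genotypes passed the test at the Ighe unit. The unit held 0.817% ± 0.117 of the covered chromosome 12 ends in WT LPS libraries and 0.915% ± 0.0571 in mutant LPS libraries (SD, n = 3 each), a log2 difference of 0.17 ± 0.13 (SE; 95% interval -0.09 to 0.44; limma, adjusted p = 0.539). No unit of the 16 passed in this comparison (0%), and 1 had an unadjusted p under 0.05. The plain count went the other way, with a mean of 74.3 covered ends in WT and 70 in the mutant (exact permutation p = 0.7, where 3 libraries against 3 cannot go below 0.1). Of the 4 ends that part the library sets, WT LPS libraries covered 4 each and mutant LPS libraries 3, 4 and 2. Levels in LPS libraries were not set against the other conditions by a test, since the LPS files come from a separate deposit with another aligner and no read numbers.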

How the data were processed

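Per the submitters' processing notes, reads were aligned to mm10 with Bowtie, or Bowtie2 for the LPS libraries; versions and filters are not given in the sources used here. The authors deposited raw read counts per 24-bp fragment end for 12 libraries, and lists of covered ends, without counts, for 6. Gene positions are RefSeq (GRCm38.p6). The members, units and lists were chosen with earlier results of these data known.

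The bait was the chromosome 12 end with most reads in each of the 12 read-count libraries (chr12:113426025-113426048), 138.6 kb from the unit. Library size was the chromosome 12 reads over 5 kb from it. Reads were summed over 16 units that do not overlap and fitted with edgeR 4.0.16 (quasi-likelihood, no TMM, 4 groups in 1 fit, Benjamini-Hochberg adjustment, two-sided); body and upstream parts (23 features) and single ends (2078) were fitted likewise. Covered LPS ends were tested with limma 3.58.1 on log2(ends + 1) as a share. Named ends were the 5 highest by mean, with called ones to be added (there were none); the ends at 6149, 8436 and 8459 bp were named after their values were seen. DESeq2 1.42.0 and other settings are described further on. Scripts were tested on simulated data. To look for a pairing, each library's deviations from its group mean, in log2(CPM + 1) over the 2078 ends, were correlated between libraries. For same-numbered libraries these deviations correlated at 0.05 to 0.30 across days (median 0.10) and -0.12 to 0.24 across genotypes (median 0.16). For differently numbered libraries the deviations correlated at -0.20 to 0.11 (median -0.14) and -0.31 to 0.18 (median -0.09). Deviations from a mean of 3 libraries are tied to each other, so these values are not correlations of whole profiles. No label says what the numbers pair, so they were not taken as pairs in the main fits or the permutation tests, though a pairing is possible. No 2 libraries were identical.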

Additional observations from a re-analysis of the deposited data

How the results depend on the processing

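Values are log2; calls rest on adjusted p, except for the ratio tests, whose alternatives have unadjusted exact p. WT activation of the unit kept its direction and call under 15 of 18 alternatives; it lost the call with TMM factors (0.54) and without WT LPS+IL4 replicate 3, with 0.55 to 0.72 when single libraries were left out, and turned to -0.20 with covered ends in place of reads. Mutant activation passed with a bait neighbourhood of 2 kb (0.34) or 10 kb (0.32), capped reads (0.42), the 10-kb upstream limit (0.33), without the ends read in 1 library set (0.36) and with DESeq2 (0.30), and was -0.33 with covered ends. The resting genotype difference passed with the 2-kb neighbourhood (0.37) and the 10-kb limit (0.59). The LPS+IL4 difference was -0.027 with covered ends and -0.013 to 0.12 when single libraries were left out. The LPS difference was -0.28 as log odds. The activation change of the ratio over neighbours had an unadjusted exact p of 0.02 with capped reads (0.36) and without mutant resting replicate 3, and ran from 0.17 to 0.39 without single libraries. The body-to-upstream ratio changed sign on activation with capped reads (0.081) and without the highest end (0.096), and ran from -0.22 to 0.14 on activation and from -0.078 to 0.30 between genotypes without single libraries; the upstream part's LPS+IL4 difference ran from -0.042 to 0.085 likewise. DESeq2 called 10, 6, 6 and 3 ends of the unit where edgeR called 0 (WT activation, mutant activation, rest, difference of effects). With the replicate block the 5 unit comparisons were 0.65, 0.34, 0.37, 0.07 and -0.31, and no call changed. The standard error of the unit's log2 change in WT ran from 0.11 to 0.30 over these settings, against 0.19 as reported; with the 2-kb neighbourhood, the calls gained in mutant activation and at rest came with a smaller standard error (0.11) and nearly the same log2. Other causes were not tested.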
